A study of Mus musculus with 9 samples.

Results

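Laminins, nidogens and perlecan are proteins of the basement membrane, and the 9 genes described here encode laminin alpha chains (*Lama2*, *Lama4*, *Lama5*), beta chains (*Lamb1*, *Lamb2*), a gamma chain (*Lamc1*), the nidogens (*Nid1*, *Nid2*) and the core protein of perlecan (*Hspg2*). They were taken by gene symbol from the 56748 genes of the count table. All 9 were among the 18510 genes tested, with 568 to 56854 reads each in a library.

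A laminin is a trimer of an alpha, a beta and a gamma chain, which cells assemble inside and which polymerises into a sheet on the cell surface. Nidogens bind the laminin gamma chain and type IV collagen and so link the sheet to the collagen network, while perlecan is a large heparan sulfate proteoglycan that holds growth factors in it. In adipose tissue a basement membrane wraps each adipocyte and underlies the endothelium of every vessel, and pericytes, smooth muscle and Schwann cells carry one as well.

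RNA was sequenced from epididymal adipose tissue of wild-type (WT) male C57BL/6J mice. Feeding of high-fat diet (HFD) started at the age of 8 weeks and lasted 8 weeks in every group. Pre was sampled at its end, and WL1 and WL2 after 1 and 2 further weeks on standard diet (SD), with 3 libraries per phase. No RNA of mice kept on HFD for the same extra weeks was analysed here, so the change of diet, the loss of weight and the added age cannot be told apart.

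Library totals lay between 16434450 and 22729072 counts. Mitochondrial transcripts made up 3.15% to 3.57% of counts at Pre, 1.86% to 2.03% at WL1 and 2.28% to 2.88% at WL2. The tissue label was checked against cell type markers. The 8 adipocyte markers summed to 17714 to 20839 CPM (counts scaled to the size of the library) at Pre, 12725 to 15799 at WL1 and 16701 to 18362 at WL2, while 8 epididymis markers stayed at or below 0.44 CPM in every library. Mesothelial markers differed more within a phase, with 38.8, 397 and 353 CPM in the Pre libraries. Members are given as CPM after TMM scaling (trimmed mean of M-values). Each comparison used the quasi-likelihood test of edgeR, with p-values adjusted by Benjamini-Hochberg over every gene tested and a threshold of 0.05. The labels do not say that the libraries came from separate animals, so the p-values measure the spread between libraries.

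Perlecan, both nidogens and the gamma chain fell. After 2 weeks of SD, *Hspg2* was 64.5% lower than at Pre, *Nid2* 49.2%, *Nid1* 38.3% and *Lamc1* 32.6%, and none of the alpha or beta chains passed the test. Of 18 alternatives (other settings or 1 library left out), 12 lost the call of *Lamc1* and 6 that of *Nid2*. After 1 week *Nid2* alone had passed the test in edgeR, a call that 10 of the 18 lost. The program DESeq2 also called *Hspg2* after 1 week. Between WL1 and WL2, *Hspg2* alone passed in edgeR, and DESeq2 also called *Nid1*.

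*Hspg2* and *Nid1* had the most alike profiles of the members over the 9 libraries (Pearson r = 0.94, or 0.487 with phase means removed). Their promoters are shown beside that of *Lamb1*, whose log2 change between Pre and WL2 was the smallest. They are RefSeq sequences of build GRCm38.p6, each of 300 bases that end shortly after the annotated start of transcription, 5′ to 3′ on the gene's strand, and the capitals mark GGGCGG or its reverse complement CCGCCC, the core of a GC box. *Hspg2* lies on the plus strand at chr4:137468553-137468852, *Nid1* on the plus strand at chr13:13437352-13437651 and *Lamb1* on the plus strand at chr12:31265043-31265342.
Hspg2: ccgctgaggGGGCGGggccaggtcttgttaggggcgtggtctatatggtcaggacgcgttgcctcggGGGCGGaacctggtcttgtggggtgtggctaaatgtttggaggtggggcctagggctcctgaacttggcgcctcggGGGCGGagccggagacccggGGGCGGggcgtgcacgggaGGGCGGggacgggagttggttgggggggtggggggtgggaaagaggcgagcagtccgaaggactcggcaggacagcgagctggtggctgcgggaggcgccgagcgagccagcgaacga
Nid1: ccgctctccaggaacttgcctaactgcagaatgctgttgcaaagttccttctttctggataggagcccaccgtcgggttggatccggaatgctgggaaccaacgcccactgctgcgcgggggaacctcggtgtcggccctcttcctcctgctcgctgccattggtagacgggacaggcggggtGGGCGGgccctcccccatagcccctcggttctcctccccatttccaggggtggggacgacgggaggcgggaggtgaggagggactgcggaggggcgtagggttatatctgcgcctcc
Lamb1: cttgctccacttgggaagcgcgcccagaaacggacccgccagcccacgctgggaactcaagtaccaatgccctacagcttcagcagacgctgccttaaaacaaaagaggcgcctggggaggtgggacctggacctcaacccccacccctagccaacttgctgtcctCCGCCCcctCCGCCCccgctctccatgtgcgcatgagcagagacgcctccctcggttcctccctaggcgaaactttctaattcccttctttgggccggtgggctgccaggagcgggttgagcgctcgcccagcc

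Promoters of 6 of the 9 members were matched, and *Lama4*, *Lamc1* and *Nid2* were not. The GC box core occurred 5 times in the *Hspg2* promoter, 4 times in *Lama5*, 2 times in *Lamb1*, 1 time each in *Nid1* and *Lama2*, and 0 times in *Lamb2*. Of the 32851 promoters in the table, 35.7% held at least 1. CCAAT, searched on both strands like the others, was present 1 time each in *Nid1* and *Lamb1* and in 37.4% of all promoters. TGACTCA (5.2% of all promoters), CACGTG (7.15%) and TATAAA (13.6%) were in none of the 6 windows. The GC content was 72.7% for *Lama5*, 70.3% for *Hspg2*, 64.7% for *Nid1*, 63.7% for *Lamb1*, 50.3% for *Lama2* and 44% for *Lamb2*. The median over all promoters was 52.7%.

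*Hspg2* encodes the perlecan core protein and lies on the plus strand of chromosome 4 (137196080 to 137297941 in the authors' table, which names no build). It read 2264, 3131 and 2356 CPM at Pre, 2162, 1730 and 1638 CPM at WL1, and 842, 862 and 1048 CPM at WL2. The phases did not overlap, and every WL1 library lay between the other phases. The log2 fold change was -1.49 ± 0.17 (SE, n = 3 libraries per phase) at WL2 against Pre (adjusted p = 0.000472) and -1.01 ± 0.17 at WL2 against WL1 (adjusted p = 0.0153, or 0.0975 without WL2 replicate 2). At WL1 against Pre it was -0.49 ± 0.17 with an adjusted p of 0.106 and a 95% confidence interval of -0.85 to -0.12. This missed the threshold in edgeR, while DESeq2 put it past the threshold (adjusted p = 0.0267). The second library of Pre held the highest value. Without it the change at WL2 against Pre was -1.33 (adjusted p = 0.000885).

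*Nid1*, on the plus strand of chromosome 13 (13612136 to 13686854), encodes the nidogen with the higher RNA level per length. Its libraries held 1301, 1283 and 1423 CPM at Pre, 1305, 1088 and 1069 CPM at WL1, and 708, 857 and 906 CPM at WL2. Pre and WL1 overlapped, and all WL2 libraries were below both. *Nid1* fell by 0.70 ± 0.13 on the log2 scale at WL2 against Pre (adjusted p = 0.00844). Against WL1 the change was -0.49 ± 0.13 with an adjusted p of 0.0668, which missed the threshold although no library overlapped, and DESeq2 put it past the threshold (adjusted p = 0.0107). At WL1 against Pre the interval of the log2 change ran from -0.50 to 0.08.

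*Nid2* (chromosome 14, plus strand, 19801333 to 19861855), the other nidogen, held 188, 160 and 188 CPM at Pre, 114, 87.7 and 77.0 CPM at WL1, and 57.5, 101 and 114 CPM at WL2. The WL1 and WL2 libraries overlapped and all lay below Pre. The log2 fold change was -0.95 ± 0.23 at WL1 against Pre (adjusted p = 0.0372) and -0.98 ± 0.23 at WL2 against Pre (adjusted p = 0.0257), comparisons that share the Pre libraries. At WL2 against WL1 it was -0.03 with an interval of -0.54 to 0.48, so that further changes of up to about 0.5 in either direction were not excluded. The WL1 call was lost in 6 of 9 cases when 1 library was left out (any of Pre, WL1 replicates 2 and 3 or WL2 replicate 2, adjusted p from 0.0507 to 0.132). The WL2 call was lost in 3 of 9 (Pre replicates 1 and 3 and WL2 replicate 2, adjusted p from 0.0625 to 0.068).

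*Lamc1*, the gamma chain shared by most laminins (chromosome 1, minus strand, 153094668 to 153208532), read 398, 340 and 509 CPM at Pre, 376, 311 and 346 CPM at WL1, and 269, 266 and 306 CPM at WL2. Pre and WL1 overlapped, and the WL2 libraries were below both. The log2 change was -0.57 ± 0.15 at WL2 against Pre with an adjusted p of 0.0418. This call was close to the threshold: it was lost when any library other than Pre replicate 2 was left out, with adjusted p-values between 0.0526 and 0.151 (the highest without WL2 replicate 2). At WL1 against Pre the change was -0.27 (interval -0.61 to 0.06) and at WL2 against WL1 -0.30 (interval -0.63 to 0.04).

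**Figure D1:**
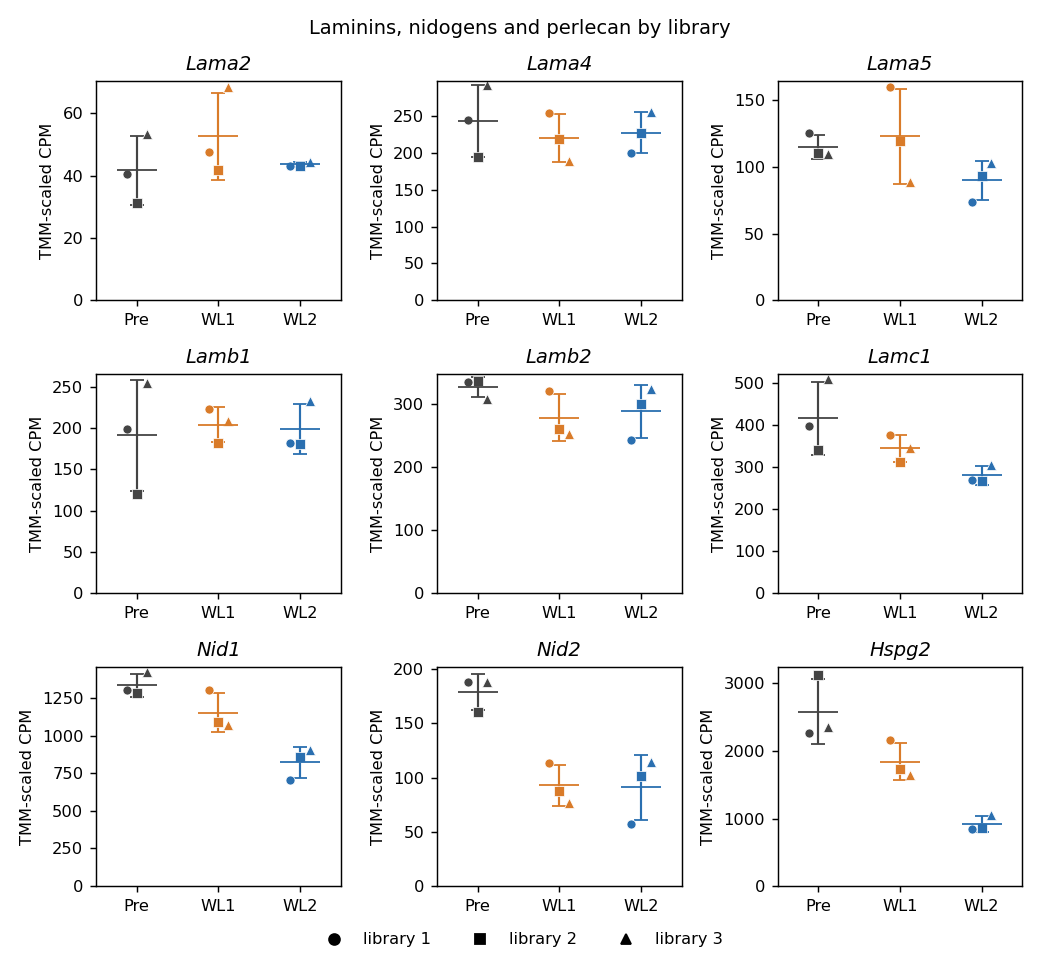
TMM-scaled CPM of each gene (vertical axes from 0, scaled per gene) in the 3 libraries of Pre, WL1 and WL2, with the mean (bar) and SD (whiskers) of each phase; the symbols only name libraries and pair none across phases. For *Hspg2* the phases stand apart in steps, with means of 2584, 1844 and 917 CPM, while for *Lama4* and *Lamb1* the phases overlap.

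The alpha chains give a laminin its receptor binding. *Lama4* (chromosome 10, plus strand, 38841511 to 38986184) is the alpha chain known from vessels and adipocytes. It read 244, 195 and 292 CPM at Pre, 254, 218 and 189 CPM at WL1, and 200, 227 and 255 CPM at WL2. The phases overlapped throughout. The log2 change at WL2 against Pre was -0.10 with an interval of -0.47 to 0.27, and it was 0.05 when libraries were scaled by their totals alone. At WL1 against Pre it was -0.15 (interval -0.52 to 0.23).

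*Lama5* (chromosome 2, minus strand, 179818166 to 179867652), an alpha chain of vessels and epithelia, read 125, 110 and 109 CPM at Pre, 160, 119 and 88.8 CPM at WL1, and 74.0, 92.7 and 103 CPM at WL2. WL1 overlapped with both other phases. All WL2 libraries were below all Pre libraries, with a log2 change of -0.35 ± 0.20 (adjusted p = 0.287, interval -0.79 to 0.08) that did not pass the test. Against WL1 it was -0.45 ± 0.20, with an adjusted p of 0.224.

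*Lama2* (chromosome 10, minus strand, 26856032 to 27495754), the alpha chain of the basement membrane of muscle and nerve, was the lowest of the members. Its libraries held 40.4, 31.3 and 53.4 CPM at Pre, 47.6, 41.7 and 68.4 CPM at WL1, and 43.2, 43.1 and 44.5 CPM at WL2. The phases overlapped, and WL2 was the tightest. The log2 change was 0.33 at WL1 (interval -0.14 to 0.80) and 0.06 at WL2 (interval -0.41 to 0.53) against Pre.

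Of the beta chains, *Lamb1* (chromosome 12, plus strand, 31315233 to 31379643) read 199, 120 and 254 CPM at Pre, 222, 181 and 208 CPM at WL1, and 182, 180 and 233 CPM at WL2. The Pre libraries alone covered the range of all others. The log2 change was 0.09 at WL1 (interval -0.42 to 0.60) and 0.05 at WL2 (interval -0.45 to 0.56) against Pre, and both turned negative without Pre replicate 2 (-0.15 and -0.19).

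*Lamb2* (chromosome 9, plus strand, 108356935 to 108367729), the beta chain known from vessels and synapses, read 334, 337 and 308 CPM at Pre, 320, 260 and 253 CPM at WL1, and 242, 299 and 324 CPM at WL2. A library of each later phase lay inside the range of Pre. The log2 change was -0.23 at WL1 (interval -0.54 to 0.07) and -0.18 at WL2 (interval -0.48 to 0.12) against Pre.

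Between WL1 and WL2 the log2 changes of the alpha and beta chains were -0.27 for *Lama2* (interval -0.74 to 0.20), -0.45 for *Lama5* (interval -0.89 to -0.0092), 0.05 for *Lama4* (interval -0.33 to 0.42), -0.04 for *Lamb1* (interval -0.55 to 0.47) and 0.06 for *Lamb2* (interval -0.25 to 0.36). None of these passed the test after adjustment, and with libraries scaled by their totals alone that of *Lamb1* was 0.0122.

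**Figure D2:**
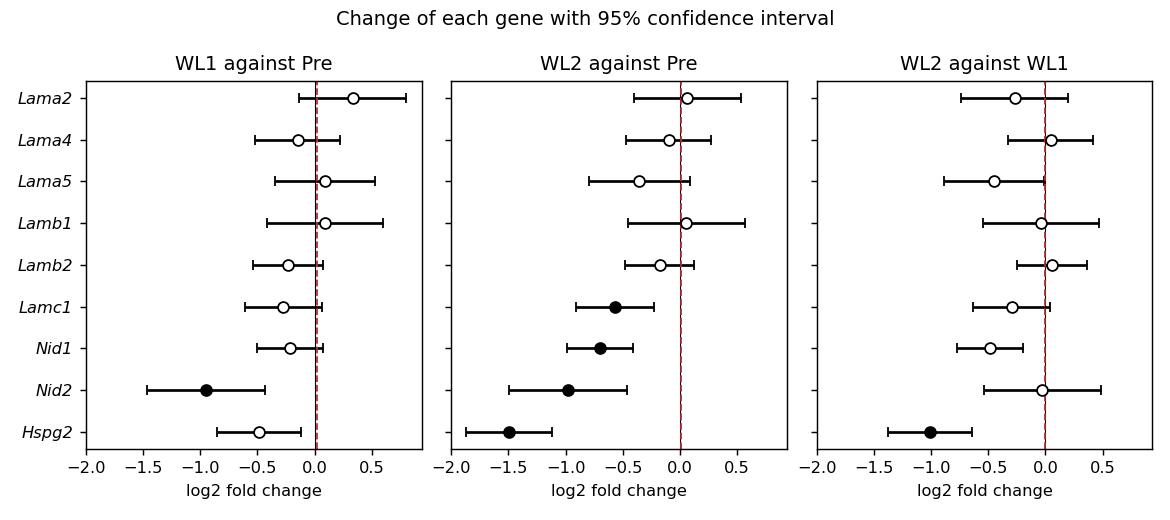
Log2 fold change of each gene (points) with its 95% confidence interval (bars) in the 3 comparisons; filled points passed the adjusted threshold of edgeR's test and the dashed line is the median of all genes tested. At WL2 against Pre the intervals of *Lamc1*, *Nid1*, *Nid2* and *Hspg2* lie below 0 and those of the alpha and beta chains include it.

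As a group, 1 of 9 members fell and 0 rose at WL1 against Pre, where 4.69% of all genes tested fell and 2.60% rose. At WL2 against Pre 4 of 9 fell and 0 rose, against 6.66% and 3.35% of all genes. At WL2 against WL1 1 of 9 fell and 0 rose, against 2.37% and 1.31%. Libraries of the later phase were all below those of the earlier in 2 members at WL1 against Pre, 5 at WL2 against Pre and 3 at WL2 against WL1, where the shares among all genes were 13.9%, 15.8% and 16.4%. The median log2 change of the members was -0.21, -0.35 and -0.27 in these comparisons, and that of all genes was 0.02, 0.01 and -0.0014. At an unadjusted p under 0.05, 2, 4 and 3 members differed, where 24.3%, 26.0% and 21.4% of all genes did. DESeq2 called 2, 4 and 2 members, all lower, where it called 7.56%, 9.14% and 6.47% of all genes lower and 5.10%, 5.54% and 3.99% higher. With libraries scaled by their totals alone, 3.47% of all genes fell and 5.41% rose at WL1 against Pre, 4.52% fell and 8.08% rose at WL2 against Pre, and 2.08% fell and 1.66% rose at WL2 against WL1. With that scaling 0, 2 and 1 members fell and 0 rose.

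Summed over the 9 genes, expression was 5095 to 5707 CPM at Pre, 3937 to 4960 CPM at WL1 and 2619 to 3334 CPM at WL2. *Hspg2* made up 42.9% to 54.9% of the members' reads at Pre, 41.6% to 43.6% at WL1 and 29.4% to 32.2% at WL2. In bulk tissue, fewer cells of a type and less RNA per cell cannot be told apart.

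The genes themselves are compared per length, as FPKM, in which the fragments of a gene are divided by gene length and library size. At Pre *Nid1* (181 ± 10.4 FPKM, SD, n = 3) and *Hspg2* (165 ± 30.6) were highest and their libraries overlapped. *Lamb2* (50.4 ± 2.42) and *Lamc1* (47.2 ± 9.79) followed and overlapped with each other, and *Nid2* (32.5 ± 2.92) lay apart below them. *Lama4* (19.0 ± 3.79) and *Lamb1* (18.1 ± 6.37) did not stand apart, and *Lama5* (9.48 ± 0.73) and *Lama2* (2.36 ± 0.63) closed the order.

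At WL2 *Nid1* (112 ± 15.7 FPKM) was still first, now apart from *Hspg2* (58.5 ± 7.88), which stood above *Lamb2* (44.6 ± 7.15) and *Lamc1* (31.8 ± 2.80). *Nid2* (16.6 ± 5.62) had moved down to the range of *Lamb1* (18.8 ± 2.99) and *Lama4* (17.7 ± 2.40). These levels rest on the gene lengths in the authors' table, which for *Lama4* is 12068 bases against 6046 for its longest coding transcript in GENCODE M21. With transcript lengths the ranks of *Lama4* and its neighbours changed, and *Lama4* took rank 4, above *Lamc1*, at WL2.

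**Figure D3:**
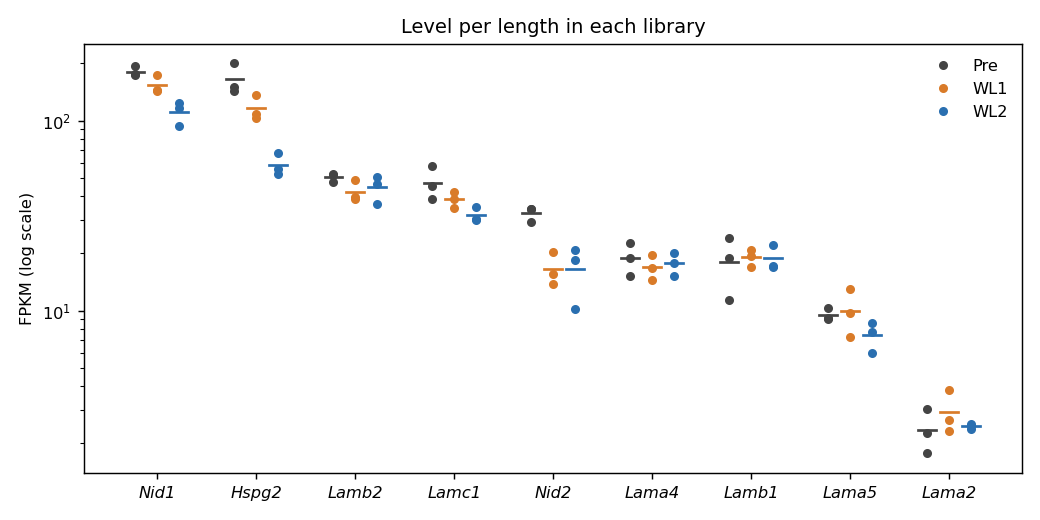
FPKM of each gene on a log axis, with 1 point per library and a line at the mean of Pre, WL1 and WL2; genes are ordered by their mean at Pre. FPKM were scaled to totals that differ between Pre and the later phases, so points are to be compared between genes within a phase. *Nid1* and *Hspg2* overlap at Pre and stand apart at WL2.

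Laminin chains of the same class, and the nidogens, were compared as shares of FPKM within each library, which do not depend on its scaling. Laminin chains outside the members were left out of the shares. Each share was tested across phases by an exact permutation test of the between-phase F statistic (280 divisions of the 9 libraries, smallest possible p = 0.00357), adjusted over the 3 shares. The share of *Lama4* among the alpha chains was 60.1%, 58.3% and 65.3% at Pre, 55.4%, 58.2% and 56.7% at WL1, and 64.6%, 63.6% and 64.3% at WL2. WL1 lay below both other phases, by a narrow margin from Pre, and Pre and WL2 overlapped (exact permutation p = 0.0286, adjusted p = 0.0429). The level of this share depended on the gene lengths used. Its mean was 61.2% at Pre and 64.2% at WL2 with the authors' lengths. With the longest coding transcripts of GENCODE M21 it was 73.4% and 75.1%.

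*Nid2* made up 16.3%, 14.3% and 15.1% of the nidogen FPKM at Pre, 10.4%, 9.76% and 8.81% at WL1, and 9.82%, 13.7% and 14.5% at WL2. Pre and WL1 stood apart, and WL2 overlapped with both (exact permutation p = 0.025, adjusted p = 0.0429). The mean share of *Lamb2* among the beta chains (± SD, n = 3) was 73.9% ± 7.82 at Pre, 68.9% ± 2.09 at WL1 and 70.3% ± 2.41 at WL2, with an exact permutation p of 0.496. The first 2 results depended on single libraries: the adjusted p rose above the threshold in 8 of 9 cases for *Lama4* and 7 of 9 for *Nid2* when a library was left out, up to 0.15 for each. Only without Pre replicate 3 for *Lama4*, and without WL2 replicate 1 or 3 for *Nid2*, did the share stay past it.

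**Figure D4:**
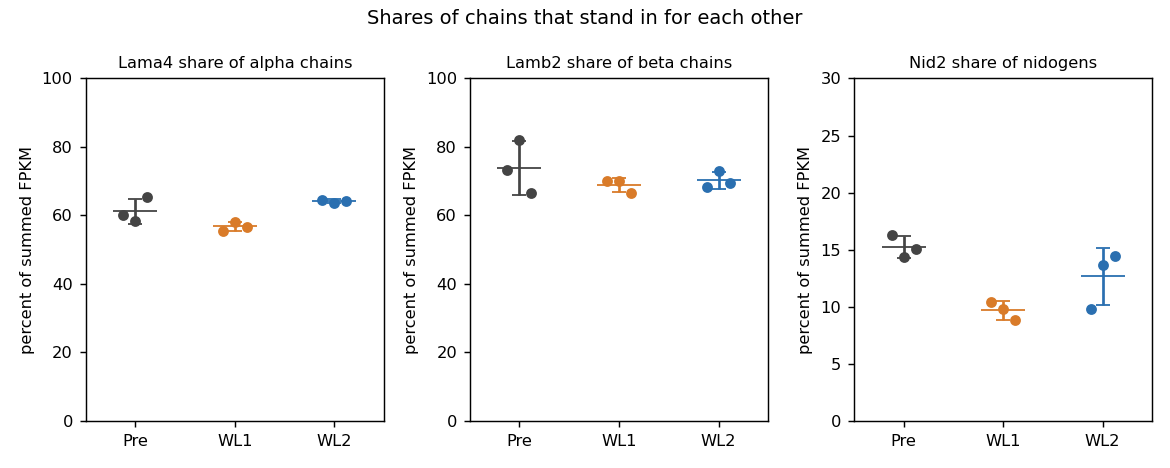
Share of *Lama4* in the summed FPKM of *Lama2*, *Lama4* and *Lama5*, of *Lamb2* in *Lamb1* and *Lamb2*, and of *Nid2* in *Nid1* and *Nid2*, in percent, with 1 point per library and the mean (bar) and SD (whiskers); axes start at 0 and the last panel has a shorter axis. The *Nid2* share averages 15.2% at Pre, 9.68% at WL1 and 12.7% at WL2.

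Perlecan was also set against the gamma chain in the same library. The FPKM of *Hspg2* were 3.19, 5.17 and 2.60 times those of *Lamc1* at Pre, 3.23, 3.12 and 2.66 times at WL1, and 1.75, 1.82 and 1.92 times at WL2. The WL2 ratios lay below all others. The summed alpha chains were 0.601 to 0.700 times *Lamc1* at Pre, 0.658 to 0.834 at WL1 and 0.789 to 0.918 at WL2, and the summed beta chains 1.24 to 1.64, 1.49 to 1.65 and 1.79 to 2.09 times. For both, the WL2 ratios lay above all Pre ratios. These ratios were not tested.

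Over the 9 libraries, 29 of the 36 pairs of members had a positive Pearson r of log2 CPM, with a median of 0.512 and a range of -0.456 (*Lama2* and *Lamb2*) to 0.94 (*Hspg2* and *Nid1*). The points share the phases as well as library scaling. With phase means removed, r was 0.487 for *Hspg2* and *Nid1*, 0.936 for *Nid1* and *Nid2* and 0.946 for *Lamb1* and *Lamc1*. Among 13047 other protein-coding genes with a mean of at least 1 CPM, the profiles most like that of *Lamc1* were those of *Kpnb1*, which encodes an importin (r = 0.985), *Lrrc8b*, of the volume-regulated anion channels (r = 0.962), *Lgr4*, a receptor for R-spondins (r = 0.961), *Epb41l2*, of the membrane skeleton (r = 0.958), and *Camkk2*, a kinase of the calcium and AMPK pathway (r = 0.956).

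Other genes of the basement membrane were counted by list. Among 4 further laminin chains tested, *Lamb3* fell, from 35.0 ± 6.27 CPM at Pre to 7.84 ± 0.82 CPM at WL2 (SD, n = 3, log2 change -2.16 ± 0.19, adjusted p = 9.35e-05), and no other passed in any comparison. The median of the 4 at WL2 against Pre was 0.47, of the opposite sign to the change of *Lamb3*. At WL1 against Pre 0 of the 4 passed in edgeR or DESeq2, and 1 had an unadjusted p under 0.05. *Lamb3* encodes the beta chain of the epithelial laminin that anchors hemidesmosomes. Of 8 basement membrane collagen genes, 4 fell at WL1 and 4 at WL2 against Pre and 0 rose, with medians of -0.69 and -0.75. Over the 18 alternatives the count was 2 to 4 at WL1 and always 4 at WL2. At WL2 the largest falls were in *Col15a1* (-1.88 ± 0.13), *Col4a2* (-1.63 ± 0.12) and *Col4a1* (-1.46 ± 0.13), of which the latter pair form the main type IV collagen of vessels and adipocytes. At WL1 they were in *Col15a1* (-1.28 ± 0.13), *Col18a1* (-0.96 ± 0.21) and *Col4a2* (-0.66 ± 0.12). The WL1 call of *Col4a1* (adjusted p = 0.0457 in edgeR) was lost in 8 of the 9 fits without a library.

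Of 19 other basement membrane components, 0 passed at WL1 against Pre in edgeR (DESeq2 called 1, and 5 had an unadjusted p under 0.05). In edgeR 3 fell at WL2, with a median of -0.15 at WL2. These were *Papln* (papilin, -1.41 ± 0.24), *Sparc* (a collagen-binding glycoprotein, -1.36 ± 0.16) and *Pxdn* (peroxidasin, which crosslinks type IV collagen, -0.57 ± 0.14). The count at WL2 ranged from 2 to 5 over 18 alternatives.

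Laminin receptors are integrins and the dystroglycan complex. Of 16 such genes, 2 fell at WL1 and 3 at WL2 against Pre and 0 rose in edgeR. Among all genes tested, 4.69% fell at WL1 and 6.66% at WL2. Over the 18 alternatives the receptors called numbered 1 to 3 at WL1 and 1 to 5 at WL2. With library totals alone, 1 was called higher at WL2. *Itga7*, the alpha subunit of a laminin-binding integrin, fell from 442 ± 31.7 CPM at Pre to 244 ± 14.6 at WL1 and 132 ± 4.08 at WL2 (log2 change at WL2 -1.74 ± 0.10, adjusted p = 1.36e-05). *Sgcd*, a sarcoglycan, changed by -0.78 ± 0.17 at WL1 and -0.75 ± 0.17 at WL2, and *Itga6*, an integrin subunit that also binds laminin, by -0.63 ± 0.17 at WL2. The list's medians were -0.26 and -0.18.

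Dystroglycan binds laminin through sugars that dedicated enzymes build. Of 11 of these enzymes tested, 1 fell at WL1 against Pre, *Pomgnt2* (-0.71 ± 0.18, a glycosyltransferase), and at WL2 *Pomt2* fell (-0.37 ± 0.10, an enzyme that adds the first mannose). None rose at WL1 or WL2 against Pre in edgeR's test. DESeq2, and edgeR with library totals alone, each called 1 higher at WL2. Of 20 genes that make or remove heparan sulfate, the sugar chains of perlecan, 1 rose at WL1, *Xylt1* (1.01 ± 0.23, the enzyme that starts the chain), and 1 fell at WL2, *Extl3* (-0.37 ± 0.10, adjusted p = 0.0493). Among all genes tested, 2.60% rose at WL1 and 6.66% fell at WL2 against Pre. Over the 18 alternatives the heparan sulfate genes called numbered 0 to 2 at WL1 and 0 to 1 at WL2. The medians of this list were -0.06 at WL1 and -0.04 at WL2.

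Of 14 proteases that cleave basement membrane, 3 rose at WL1 against Pre, *Mmp12* (2.29 ± 0.54, the macrophage elastase), *Mmp14* (0.81 ± 0.18, a membrane-bound matrix metalloprotease) and *Plau* (0.66 ± 0.17, urokinase), 1 fell, *Htra1* (-0.50 ± 0.13), and 10 did not pass. The median was 0.61. At WL2 against Pre 0 rose and 2 fell, *Bmp1* (-0.81 ± 0.12) and *Htra1* (-0.46 ± 0.13), with a median of -0.05. Unfiltered, edgeR called 1 of the proteases higher at WL2. The count at WL1 ranged from 0 (limma on log2(FPKM + 0.1), or without Pre replicate 1 or 2) to 8 over the alternatives. Summed macrophage markers were also highest at WL1, with 1226 to 2039 CPM against 476 to 866 at Pre, and their part in these changes was not tested.

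Between WL1 and WL2, 3 of the 8 collagen genes and 2 of the 14 proteases fell in edgeR. So did 1 each of the other laminin chains, the other components, the receptors and the heparan sulfate genes, and 0 genes of these lists rose. DESeq2 called 2 other components, 2 receptors and 1 heparan sulfate gene higher, where it called 3.99% of all genes higher. Unfiltered, edgeR called 1 collagen, 2 other components, 1 receptor and 1 heparan sulfate gene higher. Counted in either direction, the collagen genes called ranged from 0 (without WL2 replicate 2) to 4 over the alternatives. The proteases called ranged from 0 to 6. The calls of *Col15a1*, *Plau* and *Xylt1* between WL1 and WL2 were each lost in 5 of the 9 fits without a library. The list medians were 0.06 for the collagens and -0.55 for the proteases. Of the genes named from the lists, *Lamb3*, *Col15a1*, *Col4a2*, *Col4a1*, *Papln*, *Sparc*, *Itga7* and *Bmp1* at WL2 against Pre passed whichever library was left out. The calls of *Pomt2* and *Extl3* at WL2 were lost in each of the 9 fits without a library, those of *Htra1* in 7 at WL1 and 8 at WL2, of *Plau* at WL1 in 7, and of *Pomgnt2* at WL1, *Itga6* and *Pxdn* at WL2 in 6. Those of *Mmp12* (5), *Mmp14*, *Xylt1* and *Col18a1* (4 each) at WL1 and of *Sgcd* (4 at WL1 and 5 at WL2) were lost in fewer.

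**Figure D5:**
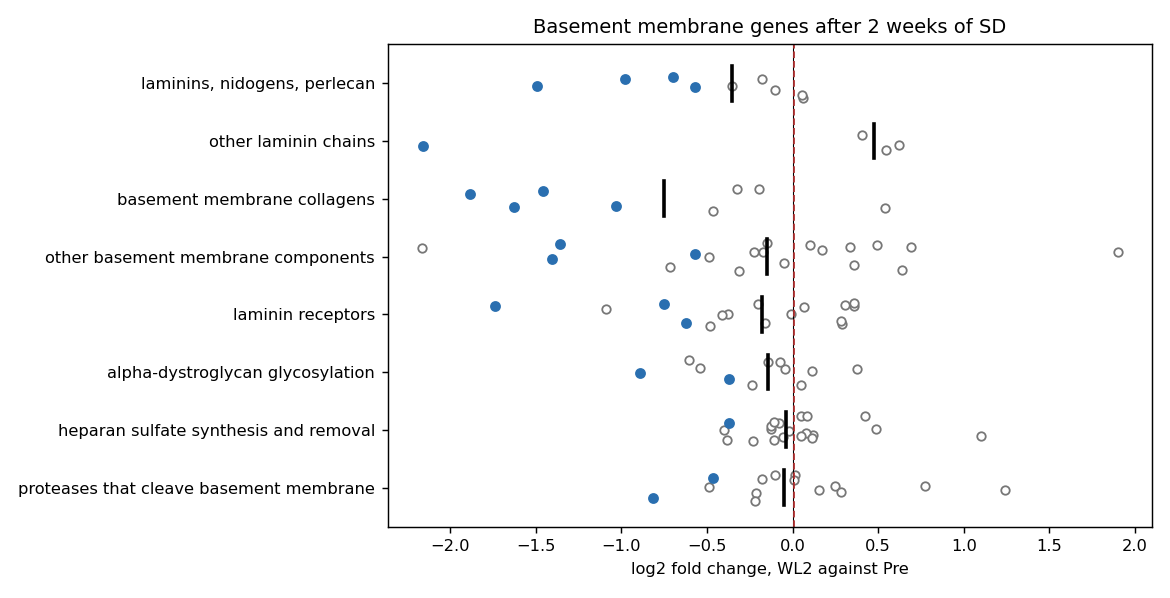
Log2 fold change at WL2 against Pre of each tested gene (points, spread vertically within a list for legibility) of the 9 members and of 7 lists of related genes; filled points passed the adjusted threshold of edgeR's test, black bars are list medians and the dashed line is the median of all genes. Filled points lie to the left of 0 in every list, and the collagens have the lowest median, -0.75.

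Markers of the cells that carry or make basement membrane were measured beside these results. Of 10 endothelial markers, 0 passed in any comparison in edgeR or DESeq2, and 0 had an unadjusted p under 0.05 (medians -0.01 at WL1 and 0.08 at WL2 against Pre). Their summed level was 1622 to 2494 CPM at Pre, 1432 to 2853 at WL1 and 2125 to 2574 at WL2. Of 10 pericyte and smooth muscle markers, 2 fell and 0 rose in each comparison with Pre in edgeR. Those that fell were *Cspg4* (-1.33 ± 0.16 and -1.80 ± 0.17) and *Acta2* (-1.28 ± 0.12 and -1.06 ± 0.12). The fitted level was lower in 6 of the 10 at WL1 and in 8 at WL2 (medians -0.25 and -0.24). At WL2 DESeq2 called 1 marker higher, as did edgeR unfiltered or with library totals alone. Their summed level went from 957 to 1150 CPM at Pre to 740 to 1032 at WL1 and 695 to 1004 at WL2. Of 8 adipocyte markers, 3 fell at WL1, most of all *Cidec* (-0.84 ± 0.11) and *Lep* (-0.83 ± 0.13), and at WL2 2 fell and 2 rose, the largest changes at WL2 being in *Lep* (-2.03 ± 0.14) and *Pck1* (1.26 ± 0.33). Fibroblast and progenitor markers summed to 1116 to 1515 CPM at Pre, 1251 to 1693 at WL1 and 1723 to 2253 at WL2, with *Thy1* lower (-0.64 ± 0.14 at WL1 and -0.94 ± 0.14 at WL2) and *Dcn* higher at WL2 (0.84 ± 0.19). Without a library, the calls of *Pck1* at WL2 and *Thy1* at WL1 were lost in 5 of 9 fits and that of *Dcn* in 4. The part of these cells in the changes of the members was not tested.

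Of 8 macrophage markers, 0 passed against Pre in edgeR, while 4 at WL1 and 1 at WL2 had an unadjusted p under 0.05 and DESeq2 called 4 and 0. They summed to 476 to 866 CPM at Pre, 1226 to 2039 at WL1 and 666 to 1102 at WL2. Of 8 mesothelial markers 0 passed against Pre in edgeR or DESeq2, and 0 had an unadjusted p under 0.05. At WL2 against WL1, where *Hspg2* fell, 0 of the 8 passed in edgeR or DESeq2, but all 8 had a higher fitted level at WL2 and an unadjusted p under 0.05 (median log2 change 2.00), and without the filter on low counts edgeR called all 8. They summed to 38.8 to 397 CPM at Pre, 47.9 to 255 at WL1 and 277 to 812 at WL2, with the highest median at WL2. Schwann cell markers summed to 48.2 to 81.0 CPM at Pre and 51.8 to 66.4 at WL2, and 1 of 7 tested passed at WL2, *Sox10*, with 0 CPM in each Pre library and a mean of 0.51 at WL2. Skeletal muscle markers summed to 58.9 to 71.9 CPM at Pre, 28.2 to 31.2 at WL1 and 36.5 to 59.0 at WL2, with 1 of 6 lower at WL1, *Acta1* (-2.41 ± 0.45). The 8 hepatocyte markers summed to 11.1 to 94.2 CPM at Pre, 4.06 to 96.4 at WL1 and 4.27 to 7.42 at WL2, and 2 fell at WL2, *Apoa2* (-4.43 ± 1.22) and *Serpina1a* (-2.95 ± 0.55). The calls of *Sox10* and *Apoa2* were lost in 7 and 5 of the 9 fits without a library, and that of *Acta1* in 2. What these cells contribute to the members was not tested either.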

How the data were processed

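RNA sequencing of 9 libraries was analysed, 3 each of Pre, WL1 and WL2, grouped by the sample labels. The authors deposited whole-number counts per gene and FPKM per gene. The submitters' processing notes name HISAT2, HISAT, TopHat2 and CASAVA with builds GRCm38 and mm10. No counting program, strand setting or annotation is given in the sources used here, so overlapping or antisense genes may share reads. The coordinates of the authors' table equalled those of GENCODE M21 (GRCm38) for 1472 of 52073 common genes and 0 of the 9 members, and are printed without a build. Totals implied by the deposited FPKM were 0.995 to 1.015 times the count totals at Pre and 1.07 to 1.12 times at WL1 and WL2. Apart from the limma alternatives, FPKM therefore served only within a library or phase.

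Counts were analysed with edgeR 4.0.16 in R 4.3.3 (quasi-likelihood fit and test, TMM factors from 0.933 to 1.065, 1 model over all libraries). A gene was kept where any library reached 0.5 CPM. Intervals are 95% intervals on the log2 scale, and log2 CPM for correlations used a prior count of 4. A simulation with planted changes was run through the edgeR procedure. Its changes were larger than those of most members, so it does not measure power at their sizes. The test was repeated unfiltered, with a filter on 3 libraries, with other size factors, with DESeq2 1.42.0, with limma 3.58.1 on log2(FPKM + 1) and log2(FPKM + 0.1), on the compared phases alone, with the replicate number as a block and without each library. Shares were repeated on counts and, as a choice made after seeing the data, with transcript lengths.

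The members, lists and naming rule were chosen with earlier results of these data known. All members are named, with the 5 genes closest to *Lamc1*. Lists name up to 3 genes, and marker lists up to 2, with the largest changes past the threshold at WL2 or WL1 against Pre. Some results that this rule would name are not reported here. Libraries of 1 phase were not duplicates (chi-square over its degrees of freedom between 9.88 and 53.8).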

Additional observations from a re-analysis of the deposited data

How the results depend on the processing

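Without 1 library the members that changed numbered 0 to 1 at WL1 against Pre, 2 to 4 at WL2 against Pre and 0 to 1 at WL2 against WL1. At WL1 against Pre the number was 0 with library totals alone, with limma on log2(FPKM + 1) and on log2(FPKM + 0.1), and 2 with DESeq2. At WL2 against Pre it was 2 with library totals alone and with limma on log2(FPKM + 0.1), and at WL2 against WL1 it was 2 with DESeq2. The members lost at WL2 against Pre were *Lamc1* and *Nid2*. Their adjusted p-values were 0.105 and 0.0508 in edgeR with library totals alone, and 0.0842 and 0.0591 with limma on log2(FPKM + 0.1). *Lamc1* was also lost at WL2 against Pre with limma on log2(FPKM + 1) (adjusted p = 0.0546). In edgeR on the compared phases alone it was lost too (adjusted p = 0.0749). *Hspg2* and *Nid1* at WL2 against Pre passed under all 18 alternatives. Library totals alone shifted the median log2 change of all genes up by 0.0989 at WL1 and 0.15 at WL2 against Pre, and the changes of the members moved up with it.

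With the replicate number as a block, 0 members changed at WL1 against Pre, 3 at WL2 against Pre and 1 at WL2 against WL1. *Nid2* was lost against Pre (adjusted p = 0.08 and 0.0571), and no other call of a member changed with the block. Libraries of the same number did not deviate together (r of deviations from -0.426 to 0.16), so the number is not taken as a pairing.

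Directions that turned belonged to changes near 0. With library totals alone the log2 change was 0.0505 for *Lama4* at WL2 against Pre, and 0.0122 for *Lamb1* and 0.0244 for *Nid2* at WL2 against WL1. With the filter on 3 libraries it was 0.0006 for *Nid2* at WL2 against WL1. Leaving out libraries gave, at WL1 against Pre, -0.28 to 0.0048 for *Lama4*, -0.14 to 0.27 for *Lama5* and -0.15 to 0.35 for *Lamb1*. At WL2 against Pre it gave -0.11 to 0.28 for *Lama2*, -0.24 to 0.0507 for *Lama4* and -0.19 to 0.31 for *Lamb1*. At WL2 against WL1 it gave -0.0454 to 0.16 for *Lama4*, -0.17 to 0.0289 for *Lamb1*, -0.0364 to 0.17 for *Lamb2* and -0.22 to 0.22 for *Nid2*.

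The difference of the *Lama4* share between WL2 and Pre was 1.45 to 4.99 percentage points without 1 library, that of the *Lamb2* share -7.37 to 0.43 and that of the *Nid2* share -3.48 to -1.15. Both other ways of treating length kept the calls of the shares. The cause of these moves was not tested. Members had at least 568 reads in a library, and for those that missed the threshold the interval of the change bounds what 3 libraries per phase can show.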
